A study of Mus musculus with 9 samples.

Results

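Heterotrimeric G proteins carry signals from seven-helix receptors into the cell, and 71 genes for their subunits and closest regulators were followed through 9 single cells of the mouse hypothalamus. The members are the gene rows whose symbols follow the names of G protein α, β and γ subunits, RGS proteins, membrane adenylyl cyclases, receptor kinases and β-arrestins, with Gnas left out. They make up 71 of the 24378 gene rows of the table. The cells came from the paraventricular nucleus of juvenile C57Bl6/N mice aged 21 to 28 days, for which no treatment is named. They were caught in a microfluidic chip, and their mRNA was converted to cDNA and counted as molecules per gene. Each of the 9 carries the same label, secretagogin-positive, so there is 1 group, and the cells are called cell 1 to cell 9 after their labels. No animal is named for any cell. The cells were therefore treated as 1 sample, no p-value was computed, and intervals are exact 95% intervals for counting error alone.

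At rest an α subunit holds GDP and sits with a βγ pair at the membrane. An activated receptor makes α exchange GDP for GTP, and both α and βγ then act on enzymes and channels until α cleaves its GTP. The α families differ in target: Gi, Go and Gz lower cyclic AMP and, through βγ, open potassium channels, Gq and G11 activate phospholipase C-β, and the olfactory form Golf stimulates adenylyl cyclase. RGS proteins speed the cleavage of GTP and so shorten the signal, while receptor kinases and arrestins switch off the receptor itself. In the paraventricular nucleus such receptors relay noradrenaline, peptides and hormones to neuroendocrine neurons.

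The cells held 1021 to 26466 gene molecules, with a median of 9573, and cells 1 and 6 were the shallowest at 1021 and 3393. Scgn, the transcript behind the label, was counted 11 times in cell 3, 3 times in cell 8 and 1 time each in cells 2, 5 and 9, but not in the remaining cells. The 15 neuron markers together had 2 molecules in cell 1, the lowest sum, and 250 in cell 5, the highest. In cells 4, 5, 7 and 8 at least 1 list of another cell type had 60 molecules or more: endothelial markers in cells 4 and 7 (133 and 60 molecules), globins and Alas2 in cell 4 (2507), oligodendrocyte markers in cell 5 (397), and ependymal markers in cell 8 (119). Cells 2, 3, 6 and 9 had at most 3 molecules of any such list, and cell 1 had none. These values are repeated below beside members counted in the same cells. Spike-in RNA gave 1962 to 2184 molecules in 8 cells and 614 in cell 9, which alone came from lane 4.

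Of the 71 members, 48 had at least 1 molecule in some cell and 23 had none. The detected share was thus 67.6% of the members, against 40.1% of all gene rows. In all, the members had 412 molecules. A majority of the cells, 5 or more of 9, held 10 of the members, and another 38 were found in fewer cells. No member was found in all 9 cells, as 0.189% of all gene rows were. The majority share was 14.1% for the members and 6.76% for all gene rows. Among rows with any molecule the shares were 16.9% for all genes and 20.8% for the members. The 10 were Gnao1, Gnai2, Gnaq, Gnb2, Gng2, Gng3, Rgs4, Rgs2, Rgs17 and Gnb2l1. When at least 2 molecules were required, 5 of them were left (Gnao1, Gnai2, Gnb2, Gnb2l1 and Rgs4), or 10.4% of the detected members. At that limit the majority share was 6.35% of all detected gene rows and 2.55% of all rows. With any 1 of cells 2, 3, 5 and 9 left out and 5 cells still required, 6 were left.

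**Figure D1:**
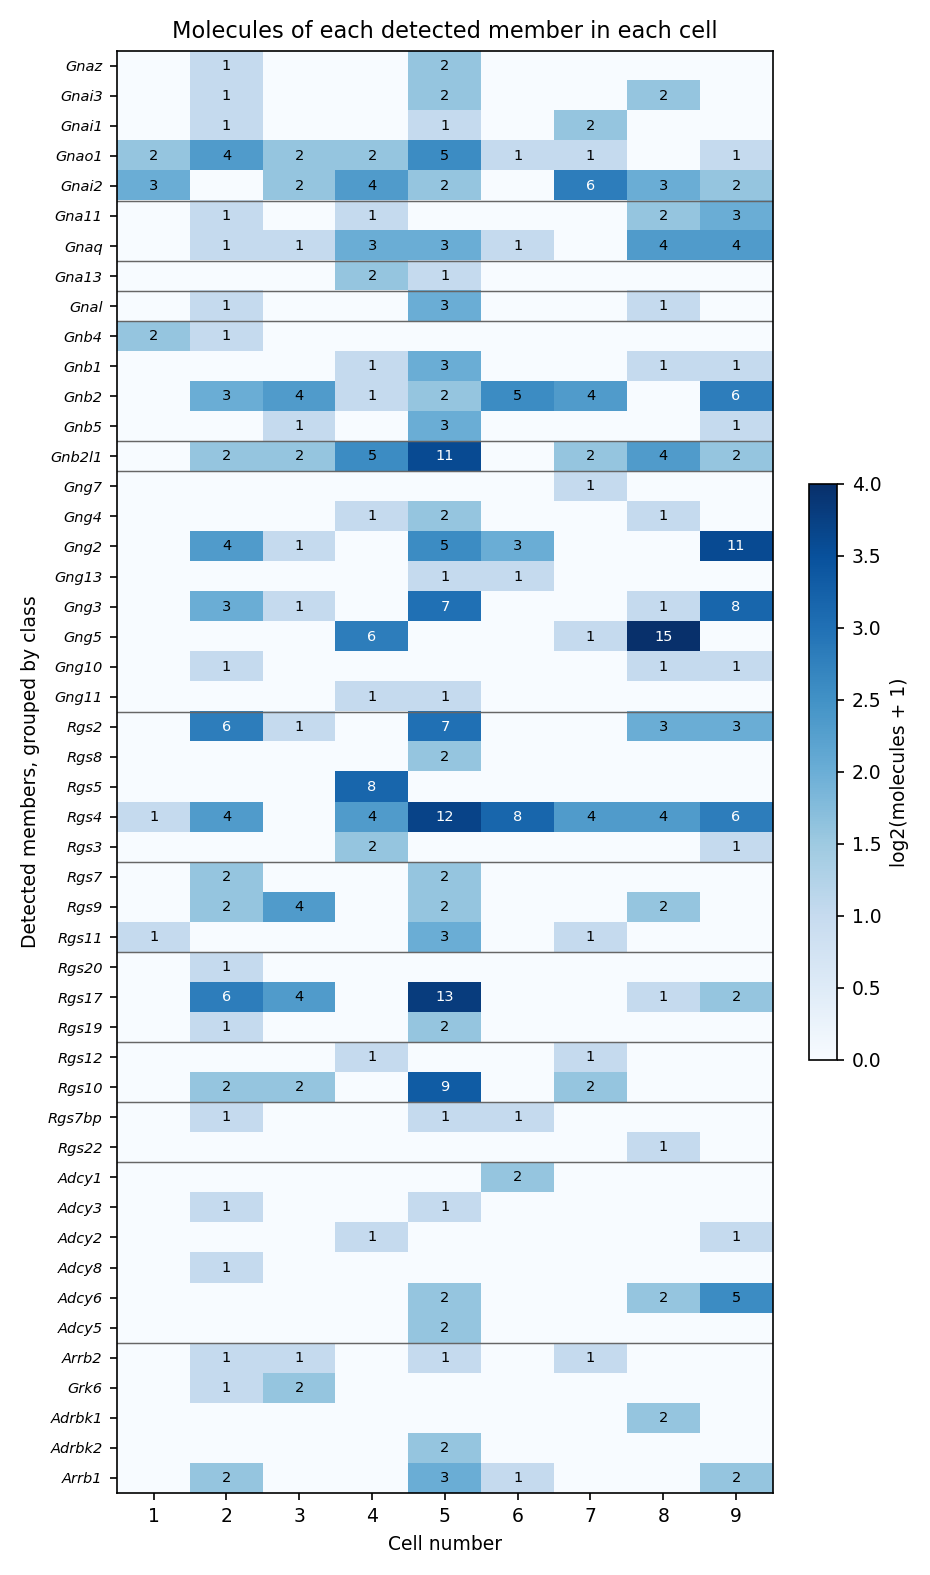
Molecules of the 48 detected members (rows, grouped by class between the lines) in each of the 9 cells (columns), with the number printed in each square and the shade giving log2(molecules + 1). Rgs4 and Gnao1 fill 8 of 9 columns each, while Rgs5 fills 1 square, with 8 molecules in cell 4, and 15 of the 22 Gng5 molecules stand in cell 8.

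The number of members found in a cell followed its depth in part. At full depth, cell 1 showed 5 members, cell 6 showed 9, cell 7 showed 12, cell 3 showed 14 and cell 4 showed 16. Cells 8 and 9 showed 18 each, cell 2 showed 27 and cell 5 showed 33. For equal depth, the number expected in a draw of 7000 molecules was computed exactly in the 7 cells with at least that many. Cell 2 reached 22.6, cell 5 reached 18.2 and cell 9 reached 17.3, whereas cell 8 reached 13.3, cell 4 reached 12.4, cell 7 reached 11.9 and cell 3 reached 11.3. Cells 2 and 3 thus stood at the ends of the range, although the genes of all kinds expected at that depth were alike, 2950 in cell 2 and 2775 in cell 3. Per 1000 genes expected, cell 2 had 7.65 members, cell 4 had 7.12, cell 9 had 6.48, cell 5 had 6.30, cell 7 had 4.67, cell 8 had 4.64 and cell 3 had 4.06. Cell 4 thus moved up in this order, as 1743 genes were expected there.

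**Figure D2:**
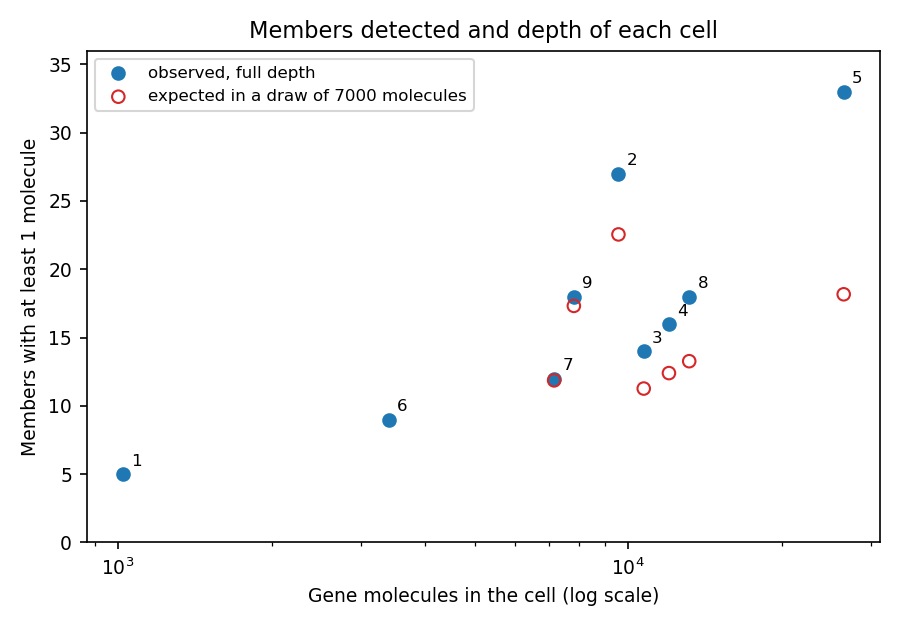
Members with at least 1 molecule (vertical axis) against the gene molecules of each cell (horizontal, log scale). Filled points are the counts at full depth, from 5 in cell 1 to 33 in cell 5, and open points are the numbers expected in a draw of 7000 molecules, where cell 3 stands at 11.3 and cell 2 at 22.6.

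As a share of all gene molecules, the members had a median of 0.446%. Cell 3 was lowest with 0.261% (interval 0.173 to 0.377%) and cell 1 highest with 0.881% (0.404 to 1.67%). Cell 9 had 0.767% (0.585 to 0.986%), which lies wholly above the intervals of cells 3, 4, 5, 7 and 8. That holds for shares of all gene molecules. Mitochondrial genes made up 4.31% of them in cell 9, 22.6% in cell 4 and 13.4% in cell 7. Intervals without those genes were not computed. Cell 9 was also the 1 cell from lane 4, so cell and lane cannot be told apart. The value of cell 1 rests on 9 molecules, and its interval overlaps those of all cells but cell 3. The symbol pattern also takes in Gnb2l1 and Gnb1l, whose proteins are not G protein β subunits. Gnb2l1 encodes RACK1, a scaffold bound to the small ribosomal subunit, and Gnb1l had 0 molecules. Of its 28 molecules, cell 5 had 11, cell 4 had 5, cell 8 had 4, and cells 2, 3, 7 and 9 had 2 each. Without both genes the median share was 0.404%. Without cells 4, 5, 7 and 8 the median of all members was 0.678%, which is the value of the shallow cell 6. That cell had 23 member molecules (interval 0.430 to 1.02%), and cell 3, the lowest, was also among the cells left.

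**Figure D3:**
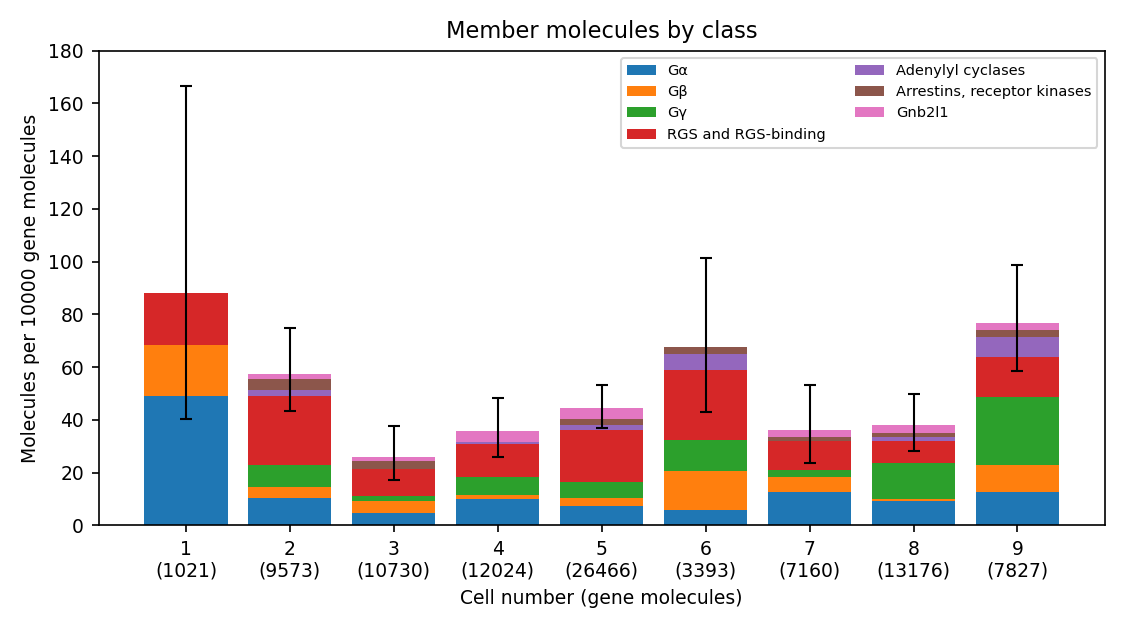
Member molecules per 10000 gene molecules in each cell, stacked by class, with the gene molecules of the cell in brackets on the horizontal axis. Whiskers are exact 95% intervals of the whole stack and cover counting error alone: the stack of cell 9 stands at 76.7 and that of cell 3 at 26.1, while the whisker of cell 1 is the widest.

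The 15 Gα genes had 84 molecules in all: 3 genes were present in most cells, 6 in fewer and 6 in no cell. The inhibitory and Go class was found in every cell. Gnao1, the abundant Gα of brain, lies on chromosome 8 at 93809966 to 93969388 (plus strand, GRCm38/mm10). Cell 5 had 5 molecules, cell 2 had 4, cells 1, 3 and 4 had 2 each, cells 6, 7 and 9 had 1 each, and cell 8 had 0. It was thus detected in 8 of the 9 cells, and the cell without it had 13176 gene molecules, where 0 molecules allow a level of up to 2.80 per 10000. Gnai2, a broadly expressed Gi gene on chromosome 9 at 107614125 to 107635367 (minus strand), totalled 22 molecules. Cell 7 had 6, cell 4 had 4, cells 1 and 8 had 3 each, cells 3, 5 and 9 had 2 each, and cells 2 and 6 had 0. Per 10000 gene molecules it was highest in the shallow cell 1, at 29.4 from 3 molecules (interval 6.06 to 85.9), followed by cell 7 at 8.38 (3.08 to 18.2). The interval of cell 1 lies above those of cell 2, where 0 molecules allow up to 3.85, and of cell 5, at 0.756 (0.0915 to 2.73). That of cell 7 lies above cell 5 as well, and the intervals of all other pairs of cells overlap. Cell 7 held 60 endothelial marker molecules, cell 5 held 3, and cells 1 and 2 held 0. Cell 4, with 133, had Gnai2 at 3.33 per 10000 (0.906 to 8.52), and the part of the endothelial signal was not tested.

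Gnai3 had 5 molecules, 2 in each of cells 5 and 8 and 1 in cell 2. Gnai1 had 4, of which 2 were in cell 7 and 1 in each of cells 2 and 5. Gnaz had 3 in 2 cells. Together the 3 Gi genes were absent from cell 6, whose depth allows little to be said. The transducin and gustducin genes Gnat1, Gnat2 and Gnat3, which serve photoreceptors and taste cells, had 0 molecules in every cell.

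In the Gq class, Gnaq was the member found in most cells. It lies on chromosome 19 at 16132831 to 16387463 (plus strand). Cells 8 and 9 had 4 molecules each, cells 4 and 5 had 3, cells 2, 3 and 6 had 1, and cells 1 and 7 had 0. Its intervals overlap for every pair of cells. Gna11, which couples to the same phospholipase, had 7 molecules, of which cell 9 had 3, cell 8 had 2, and cells 2 and 4 had 1 each. The Gq and G11 transcripts therefore came to 7 molecules in cell 9 and 6 in cell 8, and to 0 in cells 1 and 7. Gna14 and Gna15 had none. Gna13 had 2 molecules in cell 4 and 1 in cell 5, and Gna12 had none. Gnal, the Golf gene, had 3 molecules in cell 5 and 1 in each of cells 2 and 8.

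Of the 5 true Gβ genes, Gnb2 was detected in 7 cells, 3 others in 2 to 4, and Gnb3 in none. Gnb2 lies on chromosome 5 at 137528127 to 137533510 (minus strand). Cell 9 had 6 molecules, cell 6 had 5, cells 3 and 7 had 4 each, cell 2 had 3, cell 5 had 2, cell 4 had 1, and cells 1 and 8 had 0. Relative to depth it was highest in cell 6, at 14.7 per 10000 (interval 4.78 to 34.4), and this interval lies above those of cell 4 (0.0211 to 4.63), cell 5 (0.0915 to 2.73) and cell 8, where 0 molecules allow up to 2.80. Cell 9, at 7.67 (2.81 to 16.7), likewise lies above cells 5 and 8. The cells with these low bounds, 4, 5 and 8, are 3 of the 4 cells with at least 60 molecules of another cell type's list, while cell 7, the remaining one, had 5.59 (1.52 to 14.3). In cell 4, blood markers made up 20.85% of the gene molecules. They are part of its total and so lower every other level there, and bounds without them were not computed. Cell 6 had 3 endothelial and 2 mural marker molecules. Whether those markers bear on Gnb2 was not tested. Gnb1 had 3 molecules in cell 5 and 1 in each of cells 4, 8 and 9, so the single Gβ molecule of cell 8 came from Gnb1. Gnb4 had 2 molecules in cell 1 and 1 in cell 2. Gnb5, the β subunit that pairs with R7 RGS proteins, had 3 in cell 5 and 1 in each of cells 3 and 9. The counts are not scaled by transcript length, so no order of levels between genes is drawn from them.

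Among the Gγ genes, Gng2 and Gng3 were counted in one set of cells and Gng5 in another, save for 1 Gng3 molecule in cell 8. Such a division was not counted over all gene rows, so it is not read as particular to these genes. Gγ subunits carry the lipid anchor of the βγ pair. Of the 10 genes, Gng2 and Gng3 were present in most cells, 6 in fewer, and Gng8 and Gng12 in no cell. Gng2, on chromosome 14 at 19872559 to 19977627 (minus strand), had 24 molecules. Cell 9 had 11, cell 5 had 5, cell 2 had 4, cell 6 had 3, cell 3 had 1, and cells 1, 4, 7 and 8 had 0. Gng3, a Gγ gene of neurons on chromosome 19 at 8836933 to 8839194 (minus strand), had 20. Cell 9 had 8, cell 5 had 7, cell 2 had 3, cells 3 and 8 had 1 each, and cells 1, 4, 6 and 7 had 0. Both genes had their highest level in cell 9, the 1 cell from lane 4, with 614 spike-in molecules, so cell and lane cannot be told apart. Gng2 stood there at 14.1 per 10000 (interval 7.02 to 25.1), above the intervals of cells 3, 4, 5, 7 and 8, and Gng3 at 10.2 (4.41 to 20.1), above those of cells 4 and 8.

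Gng5, a Gγ gene expressed in many tissues, was counted in other cells, apart from cell 8 with its single Gng3 molecule. It lies on chromosome 3 at 146499807 to 146505572 (plus strand) and had 22 molecules. Cell 8 had 15, cell 4 had 6, cell 7 had 1, and cells 1, 2, 3, 5, 6 and 9 had 0. Cell 8 stood at 11.4 per 10000 (6.37 to 18.8) and cell 4 at 4.99 (1.83 to 10.9). Both lie above cell 5, the deepest cell, in which 0 molecules allow up to 1.39, and cell 8 also lies above cells 2, 3 and 9, whose upper bounds are 3.85, 3.44 and 4.71. The 3 cells with Gng5 held 1 molecule of Gng2 and Gng3 together, the Gng3 molecule of cell 8. The 5 cells with Gng2 held no Gng5.

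Marker lists are given beside this division, in which cell 7 stands through 1 Gng5 molecule. Its Gng5 interval (0.0354 to 7.78 per 10000) overlaps those of all other cells. Its counts of 0 for Gng2 and Gng3 allow up to 5.15 per 10000 each. How many of all gene rows divide the cells in the same way was not counted. In cell 8 the ependymal list had 119 molecules, with 7 of its 7 markers detected, and the astrocyte list had 29, with 4 of 9 detected. In cell 4 the endothelial list had 133 molecules with 10 of 10 markers detected, and in cell 7 it had 60 with 8 of 10. Elsewhere the ependymal list was low: cell 7 had 19 molecules, all from Tm4sf1, cell 4 had 11, cell 3 had 2 and the remaining cells had 0. Neuron markers made up 0.0749% of cell 4, 0.182% of cell 8 and 0.307% of cell 7, against 0.383 to 0.945% of the 5 cells with Gng2. The share of cell 7 rests on 22 molecules and that of cell 6, at 0.383%, on 13. Cell 1 had 0.196% from 2 molecules and no Gγ molecule at all, at a depth where 0 allows up to 36.1 per 10000. Cell 5 held 397 oligodendrocyte marker molecules and 250 of the neuron list, and had Gng2 and Gng3 without Gng5. These lists were chosen with earlier results of these cells known, and their part in the Gγ counts was not tested. Whether counting used strand was not stated in the labels, and Gng3 overlaps Bscl2 on the opposite strand by 1728 bases. Bscl2 had 8 molecules in cell 5 and 2 in each of cells 2 and 9, which are cells with Gng3.

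**Figure D4:**
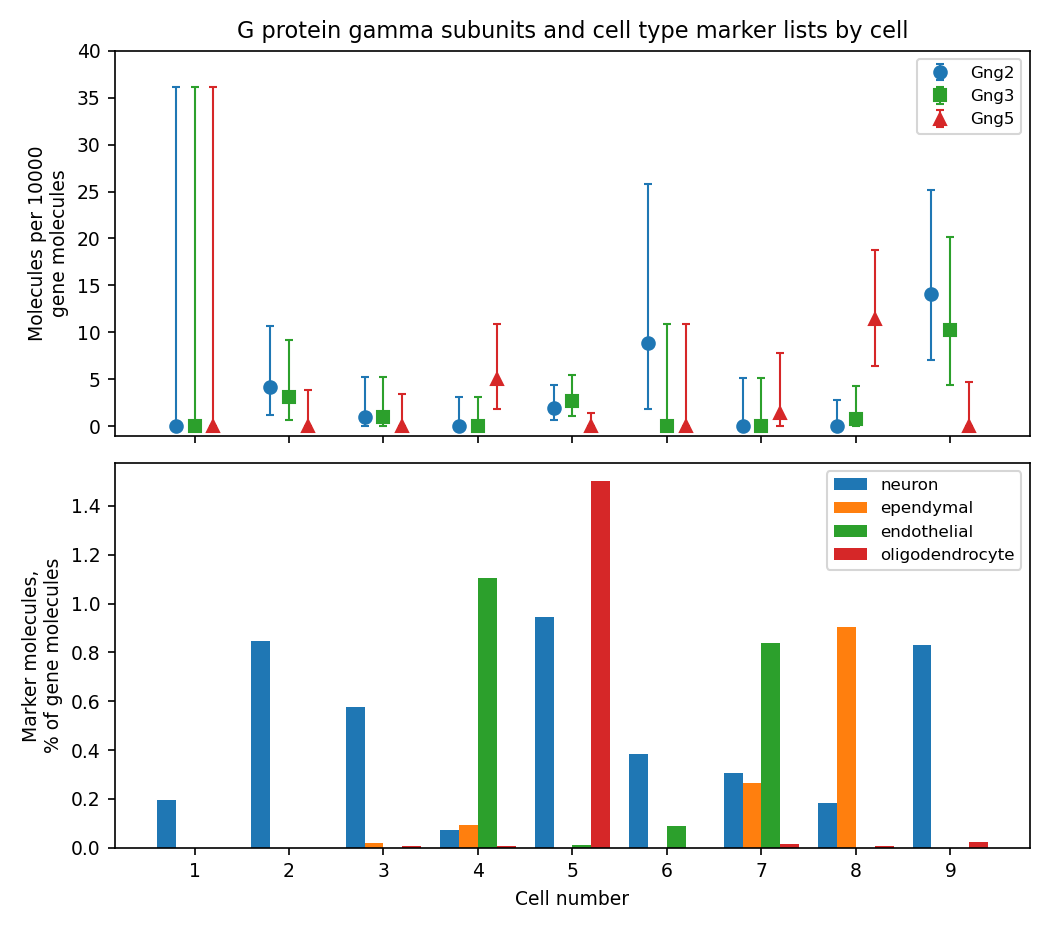
Upper panel: Gng2, Gng3 and Gng5 in molecules per 10000 gene molecules of each cell, with exact 95% intervals for counting error. Lower panel: molecules of 4 marker lists as a percentage of the gene molecules of the same cells; Gng5 rises above 0 in cells 4, 7 and 8, which carry endothelial or ependymal markers, and Gng2 in cells 2, 3, 5, 6 and 9.

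The other Gγ genes had few molecules. Gng4 had 4 molecules, 2 of them in cell 5 and the others in cells 4 and 8. Single molecules were counted for Gng10 (cells 2, 8 and 9), Gng11 (cells 4 and 5), Gng13 (cells 5 and 6) and Gng7 (cell 7). Of 5 genes listed for the enzymes that attach and process the Gγ lipid anchor, none reached a majority of cells, against 6.76% of all gene rows. A list of 5 genes is too short to set against that share. Fntb and Rce1 had 2 molecules each, Fnta had 1, and Pggt1b and Icmt had 0.

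RGS genes and their binding proteins made up 22 members and 146 molecules, or 15.3 per 10000 in the median cell. A majority of cells held 3 of these genes, fewer cells held 12, and no cell held the other 7. Rgs4, which acts on Gi and Gq α subunits, was found in more cells than any other RGS gene. It lies on chromosome 1 at 169741477 to 169747642 (minus strand) and had 43 molecules. Cell 5 had 12, cell 6 had 8, cell 9 had 6, cells 2, 4, 7 and 8 had 4 each, cell 1 had 1 and cell 3 had 0. Relative to depth it was highest in cell 6, at 23.6 per 10000 (interval 10.2 to 46.5), above the intervals of cells 3, 4, 5 and 8. The total of cell 4 includes its blood markers here as well. In cell 6, 8 of the 9 RGS molecules came from Rgs4. That cell had 34.2% mitochondrial molecules, the most of the 9. Cell 3, with 10730 gene molecules and the most Scgn, had no Rgs4, which allows up to 3.44 per 10000.

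Rgs5 is the neighbour of Rgs4 on chromosome 1, at 169655501 to 169695813 (plus strand), 45.7 kb away with no coding gene between them. It is known as a gene of pericytes. All 8 of its molecules lay in cell 4, at 6.65 per 10000 (2.87 to 13.1), and 4 Rgs4 molecules were counted in the same cell. The other 8 cells had no Rgs5, and the limit for a count of 0 was lowest in cell 5, at up to 1.39 per 10000. The interval of cell 4 lies above those of cells 5 and 8 alone and overlaps those of all other cells. Of the 8 mural markers, 1 was detected in cell 4, Vtn with 1 molecule, and Acta2, Pdgfrb, Kcnj8 and Abcc9 were at 0 there. Endothelial and blood markers were abundant in cell 4 (133 and 2507 molecules). Cell 7, with 60 endothelial marker molecules and no blood marker, had no Rgs5, at up to 5.15 per 10000. The part of either list in the Rgs5 count was not tested.

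Rgs2, which favours Gq, had 20 molecules: cell 5 had 7, cell 2 had 6, cells 8 and 9 had 3 each, cell 3 had 1, and cells 1, 4, 6 and 7 had 0. Rgs17, an RZ-family gene that acts on Gi and Gz α subunits, was counted in the same 5 cells. Of its 26 molecules, cell 5 had 13, cell 2 had 6, cell 3 had 4, cell 9 had 2 and cell 8 had 1. Relative to depth, Rgs17 stood at 6.27 per 10000 in cell 2 (2.30 to 13.6) and at 4.91 in cell 5 (2.62 to 8.40), and its intervals overlap for every pair of cells. Rgs10, of the R12 family, had 9 molecules in cell 5, 2 in each of cells 2, 3 and 7, and 0 in the others. Cell 8 had no Rgs10, at up to 2.80 per 10000.

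**Figure D5:**
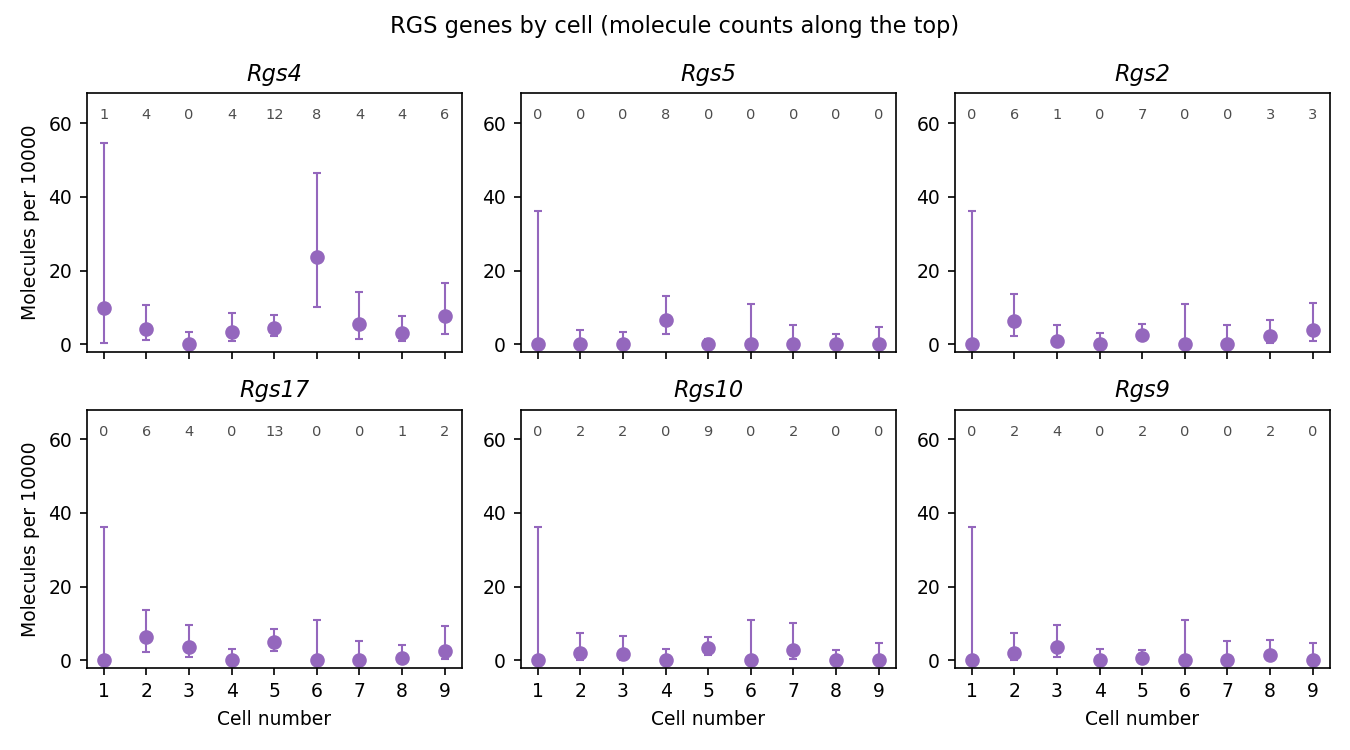
Level of 6 RGS genes in molecules per 10000 gene molecules (vertical axes, same scale) in cells 1 to 9, with exact 95% intervals for counting error and the molecule counts along the top of each panel. Rgs4 is at 0 in cell 3 alone, Rgs5 is above 0 in cell 4 alone, and Rgs2 and Rgs17 are both above 0 in cells 2, 3, 5, 8 and 9.

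R7 proteins work as complexes with Gβ5 and, at the membrane, with the binding protein encoded by Rgs7bp. Rgs9 had 4 molecules in cell 3 and 2 in each of cells 2, 5 and 8. Rgs11 had 3 in cell 5 and 1 in each of cells 1 and 7, Rgs7 had 2 in each of cells 2 and 5, and Rgs6 had none. Gnb5 was counted together with an R7 gene in cells 3 and 5 and without one in cell 9. All 3 parts of the complex were counted in cell 5 alone, with 7 R7, 3 Gnb5 and 1 Rgs7bp molecules, and cell 5 was the deepest cell. Cells 2 and 6 held 1 Rgs7bp molecule each. Rgs11 overlaps Arhgdig on the opposite strand, which had 10 molecules, none of them in the cells with Rgs11.

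The remaining RGS genes had 3 molecules or fewer. Rgs3 was counted in cells 4 and 9, with 2 and 1 molecules, and Rgs19 in cells 5 and 2, also with 2 and 1. Rgs12 had 1 molecule in each of cells 4 and 7, and Rgs8 had 2 in cell 5. Rgs20 and Rgs22 had a single molecule each, in cells 2 and 8. Rgs20 overlaps Atp6v1h, which had 19 molecules but none in cell 2. Rgs1, Rgs13, Rgs14, Rgs16, Rgs18, Rgs6 and Rgs9bp were at 0 in every cell. Rgs18, a gene of platelets and other blood cells, was thus at 0 in cell 4, where that allows up to 3.07 per 10000. The list behind the 2507 blood marker molecules of cell 4 holds globins and Alas2 and no platelet marker.

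Adenylyl cyclases make cyclic AMP and are the target of stimulatory and inhibitory α subunits. The 9 genes had 18 molecules in total. No cyclase reached a majority of cells: 6 were found in 1 to 3 cells, and Adcy4, Adcy7 and Adcy9 were at 0. Adcy6, a cyclase that calcium inhibits, had 5 molecules in cell 9 and 2 in each of cells 5 and 8. Its relative Adcy5 had 2 in cell 5. The calmodulin-responsive group had 2 Adcy1 molecules in cell 6, 1 Adcy3 molecule in each of cells 2 and 5, and 1 Adcy8 molecule in cell 2. Adcy2 had 1 in each of cells 4 and 9. The calcium-inhibited cyclases were thus counted in cells 5, 8 and 9 and the calmodulin-responsive ones in cells 2, 5 and 6, so only cell 5 held both groups. Cells 1, 3 and 7 had no cyclase molecule. With totals this small, the intervals of each cyclase overlap for every pair of cells.

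Arrestins and receptor kinases, which end signalling at the receptor, came to 19 molecules. Of the 8 Arrb1 molecules, cell 5 had 3, cells 2 and 9 had 2 each and cell 6 had 1, while Arrb2 had 1 in each of cells 2, 3, 5 and 7. Of the 6 kinase genes, Grk6 had 2 molecules in cell 3 and 1 in cell 2. Adrbk1, now named Grk2, had 2 in cell 8, and Adrbk2, now Grk3, had 2 in cell 5. The retinal kinase gene Grk1 and also Grk4 and Grk5 had none.

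Further down the pathway, 23 genes for effectors and partners of G proteins were listed, and 22 of them have a gene row. Of these, 4 reached a majority of cells (18.2%, against 6.76% of all gene rows), 13 were found in fewer and 5 were at 0. Among all gene rows with any molecule the majority share was 16.9%. The list was chosen with earlier results of these cells known, so no excess is read from these shares. The 4 were 3 genes of cyclic AMP-dependent kinase and Rapgef4, a cyclic AMP-sensing exchange factor. The catalytic subunit gene Prkacb had 65 molecules: cell 5 had 23, cell 3 had 14, cell 9 had 10, cell 2 had 9, cell 6 had 6, cell 8 had 3, and cells 1, 4 and 7 had 0. Its counts thus cover the 5 cells with Gng2 and cell 8. The regulatory subunit genes Prkar1b and Prkar1a had 51 and 30 molecules, each in 7 cells, and cell 1 held neither. Rapgef4 had 10 molecules, of which 6 lay in cell 4. Plcb1, a phospholipase C-β gene, had 8 molecules, of which cell 5 had 5, cell 2 had 2 and cell 3 had 1. Among the channels that βγ opens, Kcnj9 had 2 molecules in cell 3 and 1 in cell 5, and Kcnj3, Kcnj5 and Kcnj6 had none. Of 16 phosphodiesterase genes, which break down cyclic nucleotides, 1 reached a majority of cells (6.25%, near the 6.76% of all gene rows), 7 were found in fewer and 8 were at 0. That gene, Pde4b, had 1 molecule in each of cells 1, 2, 4, 5 and 6.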

How the data were processed

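The deposited data are counts, called molecules by the authors, in a single table of 9 cells, which lists 24378 genes and 92 spike-ins. Per the labels' protocols, cells from slices 300 µm thick were captured in up to 96 chambers, cDNA was amplified for 21 cycles and fragmented with Tn5. The submitters' processing notes name Bowtie and mm10. The collapsing of duplicate reads, the strand setting and the choice of cells are not given in the sources used here. Columns were matched to cells by number.

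Levels are counts per 10000 gene molecules, spike-ins excluded. Intervals are exact Poisson for counts and exact Clopper-Pearson for shares of molecules, at 95%, and the bound for a count of 0 is the interval's upper end, 3.69 molecules. A gene counted as detected with at least 1 molecule. Equal-depth values are exact hypergeometric expectations, tested on simulated draws. Doublets were not called in 9 cells. All 71 members were found in GENCODE M21 (GRCm38), 3 through newer symbols.

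Members and lists were chosen with earlier results of these data known. Full values were given for the 4 members of each class found in most cells, for members with at least 10 molecules, and for those with at least 5 molecules of which 75% lay in 1 cell, 37 in all. The search for neighbouring members within 250 kb and the comparison with the cells holding Scgn were chosen after the values were seen. Alternatives were other detection limits and totals, and leaving out cells. The tools were scipy 1.17.1, numpy 2.4.6, matplotlib 3.10.9 and pandas 2.3.3 in Python 3.11.15.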

Additional observations from a re-analysis of the deposited data

Results flagged for a closer look

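In 21 of 51 measures, 1 cell stood far from the nearest other cell relative to the range of all 9. These measures are levels per 10000 gene molecules of named members, of classes and of all members. The rule flags about 1 in 20 groups by chance only where values are normally distributed, which these counts are not. A gene counted in 1 cell alone is flagged whatever its count, so 21 of 51 cannot be read against that rate. For genes with a few molecules a single cell can stand apart by 1 or 2 molecules. In the shallow cell 1, where 1 molecule is 9.79 per 10000, these were Gnai2 (29.4), Gnao1 (19.6), Gnb4 (19.6) and Rgs11 (9.79), with the Gi, Go and Gz class at 49.0 and the R7 class at 9.79. In cell 6, where 1 molecule is 2.95, they were Rgs4 (23.6), Adcy1 (5.89), Rgs7bp (2.95) and the class of other RGS and binding proteins (2.95).

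Cell 9 stood apart for Gng3 (10.2), Adcy6 (6.39) and Gna11 (3.83). Cell 8 did so for Gng5 (11.4) and Adrbk1 (1.52), cell 4 for Rgs5 (6.65), for Gna13 (1.66) and for its class (1.66), cell 7 for Gnai1 (2.79), and cell 2 for Rgs7 (2.09) and Adcy3 (1.04). Of these, Gng5 rests on 15 molecules, and Rgs4, Rgs5 and Gng3 on 8 each in the cell that stood apart.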

How the results depend on the processing

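The count of 10 members in at least 5 cells was 5 when at least 2 molecules were required and 2 at 3 molecules, and the 48 members detected in any cell were 21 at 3 molecules. Leaving out each cell in turn gave 6 to 10 and 45 to 48 members, and medians of 0.413 to 0.510% of molecules for all members and 0.377 to 0.479% without Gnb2l1 and Gnb1l. Without cells 4, 5, 7 and 8, both medians were 0.678%, the value of the shallow cell 6. In that setting 11 members were in at least 3 of 5 cells, the same 10 and Arrb1. Without cells 1 and 6, 15 were in at least 4 of 7 cells. The median number of members at equal depth was 13.3 in a draw of 7000 molecules and 8.00 in a draw of 3000, as fewer molecules were drawn. The cell with the highest level changed for 13 of 37 named members under spike-in scaling and for 0 without mitochondrial genes. Among the 13 were Rgs4 and Gnb2, which moved from cell 6 to cell 9. Gnai2 moved from cell 1 to cell 9, Gnao1 from cell 1 to cell 5 and Rgs17 from cell 2 to cell 5. Cell 9 had 614 spike-in molecules against 1962 to 2184 in the other cells, so that scaling raises every gene there. Cell 5 had the most gene molecules, 26466, by which spike-in scaling does not divide. Depth limits what a count of 0 says: it allows up to 36.1 molecules per 10000 in cell 1 and 1.39 in cell 5.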

Other observations

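Several members lie next to a relative on a chromosome, and their counts are given here side by side. There were 5 neighbouring pairs of Gα genes within 250 kb. In each pair 1 gene had molecules and the other had 0. Such pairs were not counted over all genes, of whose rows 40.1% had any molecule, so nothing is read from these 5. Gna11 (7 molecules) and Gna15 are 4.50 kb apart, Gnai3 (5) and Gnat2 are 5.85 kb apart, and Gnai2 (22) and Gnat1 are 39.1 kb apart. Gnaq (17) and Gna14 are 48.3 kb apart and Gnai1 (4) and Gnat3 are 245 kb apart. Among RGS genes, Rgs2 (20) lies 134 kb from Rgs13, which had none, and Rgs8 (2) lies 40.0 kb from Rgs16, which had none. Rgs13 and Rgs1, 64.9 kb apart, were both at 0. For Rgs4 and Rgs5 both neighbours had molecules, 43 and 8, and cell 4 was the 1 cell with both.

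Rgs2, Rgs17 and Gng3 were each detected in exactly the 5 cells with Scgn, cells 2, 3, 5, 8 and 9. These were 3 of the 4 members detected in exactly 5 cells. The set of cells with Scgn was also the most frequent one among all genes detected in exactly 5 cells, with 128 of 685 gene rows (18.7%). Many other genes thus share the match, and 4 members are too few to set against that share. Of the 4 cells outside the set, cells 1, 6 and 7 were the shallowest of the 9.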
